A study of Homo sapiens with 6 samples.

Results

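Expression of 10 core pluripotency genes, POU5F1, NANOG, PRDM14, SALL4, DPPA4, L1TD1, USP44, ESRRB, KLF4 and ZFP42, was examined in PA1 cells after reduction of SOX2. The genes were taken by symbol from the 59653 gene rows of the deposited count table, and 9 of them passed the filter on low counts (17592 genes passed in all). PA1 is an established human ovarian teratocarcinoma line, and both groups share its genotype, given as wildtype. One group received a negative control small interfering RNA (siRNA) and the other siRNA against SOX2, with 2 SOX2 siRNAs named and no statement of whether they were pooled. Transfection was done in adherent culture, cells were moved after 24 h to poly-HEMA-coated plates that prevent attachment, and RNA was taken after a further 72 h of suspension growth. Each group had 3 mRNA sequencing libraries, numbered 1 to 3. The labels do not say whether these came from separate cultures, so p-values measure the spread between these libraries, which may be technical.

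In pluripotent cells the transcription factors OCT4 (encoded by POU5F1), SOX2 and NANOG bind many of the same regulatory regions, and OCT4 and SOX2 often bind side by side on a composite DNA element. PRDM14 and SALL4 act with them as DNA-binding regulators, DPPA4 is a chromatin-associated protein, L1TD1 is an RNA-binding protein, and USP44 is a deubiquitinase that acts on histone H2B and in the mitotic checkpoint. ESRRB, KLF4 and ZFP42 (REX1) are best known from naive pluripotency, the earlier of the states in which pluripotent cells can be held, while human pluripotent lines usually resemble the later, primed state.

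After SOX2 siRNA, PRDM14, NANOG and USP44 fell to 23.7%, 26.3% and 37.2% of their control levels, POU5F1 rose slightly, to 113% of control, and SALL4, DPPA4, L1TD1, ESRRB and KLF4 did not pass the test. ZFP42 was at or near 0 in every library. Thus 4 of the 9 tested genes were called (adjusted p under 0.05 in an edgeR quasi-likelihood fit of the whole table, with the Benjamini-Hochberg method), and 28.2% of all tested genes were. Of these, PRDM14, USP44 and NANOG were lower (13.4% of all tested genes) and POU5F1 was higher (14.8%). PRDM14, USP44 and NANOG were each called and lower by at least 2-fold, as were 1.59% of all tested genes. NANOG passed the filter on low counts through the control libraries alone, so its direction, though not its size, was fixed. It does not count towards these contrasts, which leaves 3 called of the other 8 genes. The 3 libraries of each group did not overlap for 5 of the 9 genes, against 41.8% of all tested genes. NANOG is 1 of the 5. Of the other 8 genes, POU5F1, PRDM14, USP44 and DPPA4 did not overlap, which is near that share and no result about the genes. The median log2 fold change of the 9 genes, NANOG included, was -0.38 and that of all tested genes -0.001. The 10 genes were chosen with earlier results of these data known, so these counts only describe them. In these bulk libraries, fewer cells expressing a gene and less RNA per cell cannot be told apart.

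The targeted gene was checked first. SOX2 (GRCh38, chromosome 3, 181711924 to 181714436, plus strand) stood at 245, 265 and 256 CPM (counts scaled to library size), in order of replicates 1 to 3 as throughout, in the controls and at 51.8, 54.9 and 50.6 CPM after SOX2 siRNA. The groups lay far apart, and 20.5% of the control level remained (log2 fold change -2.28, SE 0.0437). Total counts per library ranged from 25152313 to 32753184, so that 3 counts, taken as the floor of detection, equalled 0.0909 to 0.120 CPM. Such floors cover counting error only, since PCR copies of a molecule were not told apart.

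**Figure D1:**
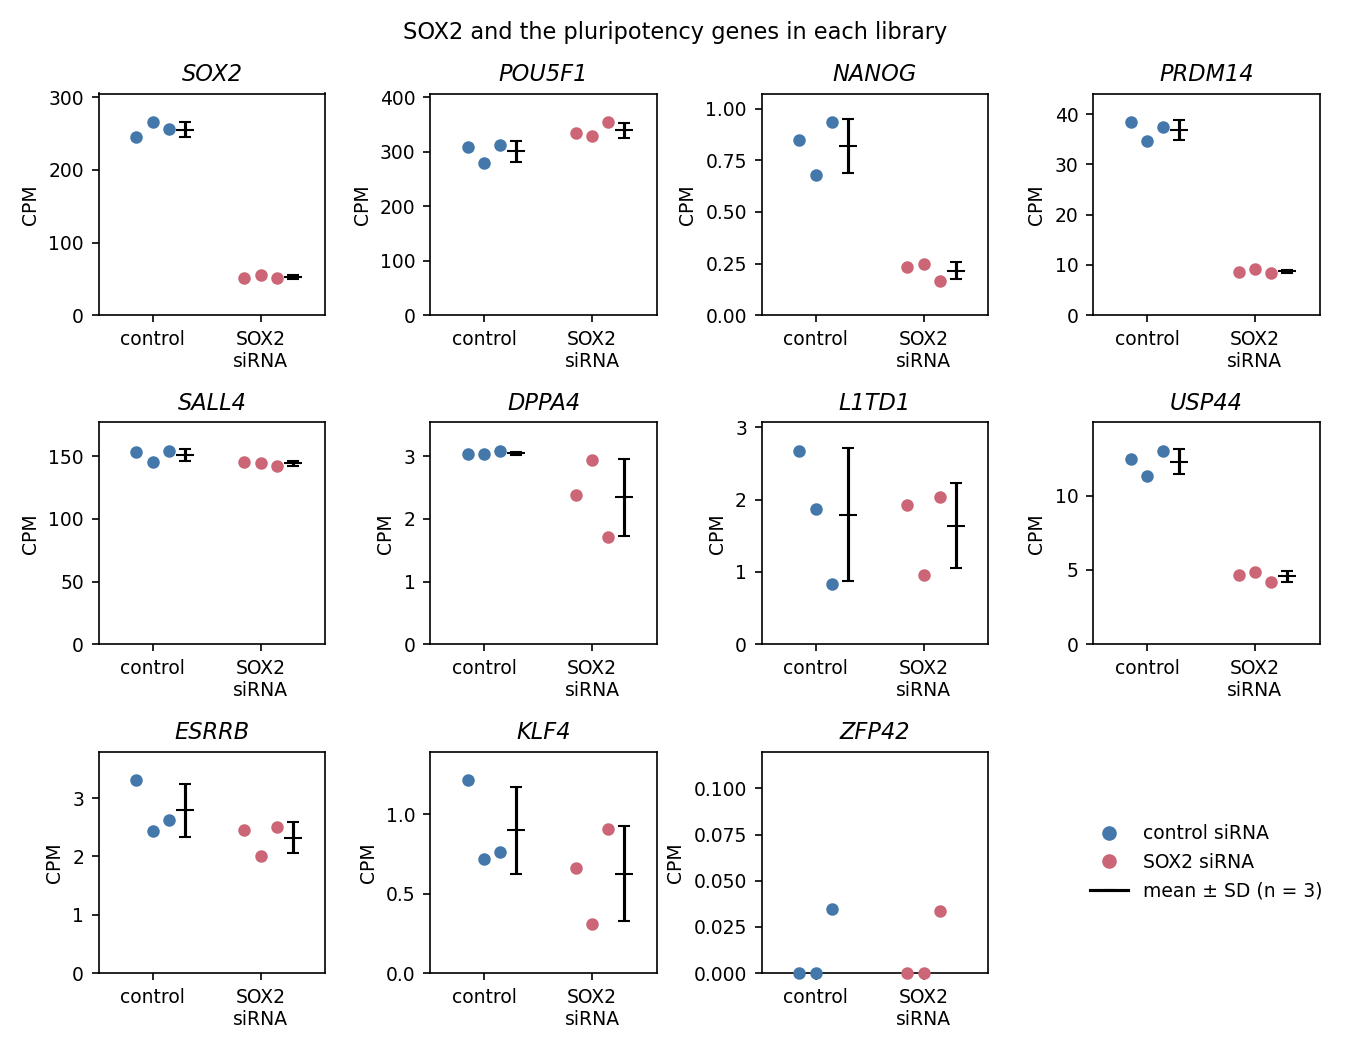
CPM of SOX2 and the 10 pluripotency genes in each library, on linear axes from 0 with a scale of their own per gene. Points are the 3 libraries of each group, in order of replicate number, and black marks are means ± SD (n = 3; not drawn for ZFP42, with 1 count in each group). SOX2, PRDM14, NANOG and USP44 are lower in each SOX2 siRNA library than in any control library, POU5F1 is higher, DPPA4 is lower without overlap by a narrow margin, and SALL4, L1TD1, ESRRB and KLF4 overlap.

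Levels of different genes were compared per length, as CPM per kb of the union of a gene's exons in GENCODE 29. In control libraries POU5F1, at 104 ± 6.45 CPM per kb, and SOX2, at 102 ± 4.001 (SD, n = 3), overlapped in their ranges. SALL4 followed at 26.2 ± 0.806 and PRDM14 at 15.1 ± 0.783 CPM per kb. USP44 came next at 2.28 ± 0.155 CPM per kb. The other genes were all below 1 CPM per kb: DPPA4 at 0.610 ± 0.00550, ESRRB at 0.470 ± 0.0767, L1TD1 at 0.465 ± 0.239, KLF4 at 0.245 ± 0.0748 and NANOG at 0.152 ± 0.0241. In this order ESRRB, L1TD1 and KLF4 overlapped with their neighbours, and NANOG lay below KLF4 in every control library. After SOX2 siRNA, SOX2 itself (20.9 ± 0.883 CPM per kb) ranked below SALL4 (24.98 ± 0.347). The choice of length matters here: with the median transcript length instead, the ranks of 5 genes changed, SALL4 (131 ± 4.04 CPM per kb) passing SOX2 and NANOG (0.962 ± 0.152) passing L1TD1 and KLF4 in control libraries.

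**Figure D2:**
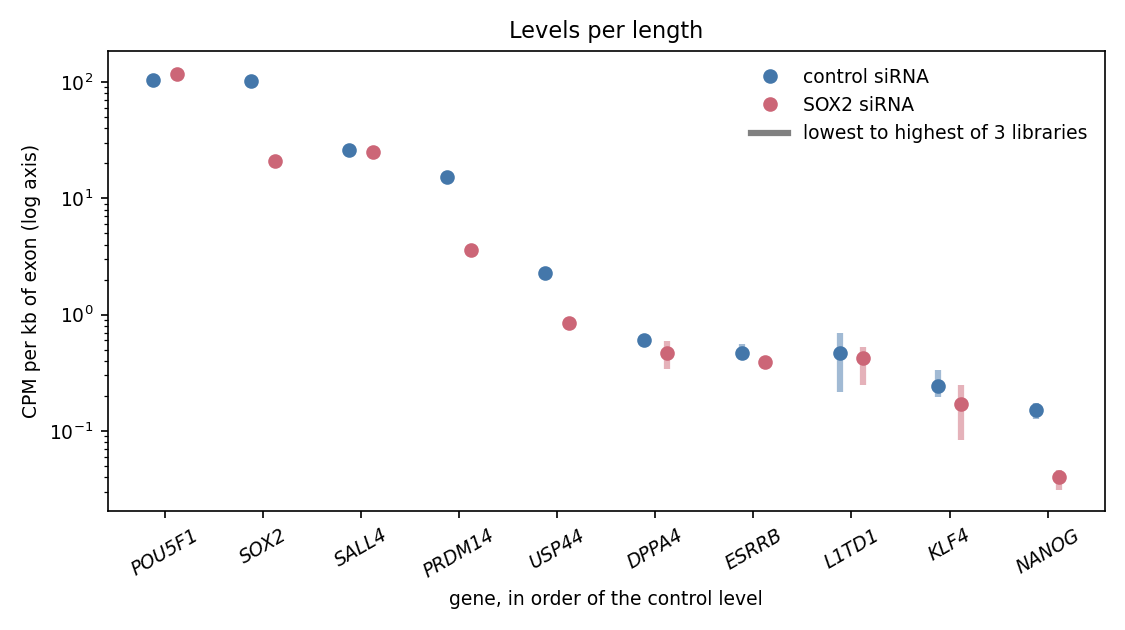
Level per length of SOX2 and 9 of the pluripotency genes, as CPM per kb of exon on a log axis, ordered by the control level. Points are means and bars run from the lowest to the highest of the 3 libraries of each group; ZFP42 is not drawn. POU5F1 and SOX2 share the top at 104 and 102 CPM per kb in control libraries, and NANOG is last at 0.152.

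POU5F1, the gene of OCT4 (chromosome 6, 31164337 to 31180731, minus strand), had the highest level per kb of the 10. It stood at 309.9, 279 and 313 CPM in the controls and at 334, 330.0 and 354 CPM after SOX2 siRNA. Each SOX2 siRNA library was above each control library, by a small margin. The increase was 1.13-fold (95% interval 1.06 to 1.20; log2 fold change 0.17, SE 0.0443; edgeR adjusted p = 0.00798). Set against its partner SOX2, POU5F1 had 1.26, 1.05 and 1.23 counts per SOX2 count in the controls and 6.45, 6.01 and 6.99 after SOX2 siRNA. That ratio was 5.50-fold higher after SOX2 siRNA, most of which restates the decrease of SOX2, the siRNA target, to 20.5% of control.

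POU5F1 has several near-identical copies, and reads may be split between them by the counting. Copies (POU5F1B and the rows named POU5F1P with a number) together had 327, 318 and 298 counts in the controls and 366, 338 and 347 after SOX2 siRNA. They made up 3.54% ± 0.696 of the summed counts in the controls and 3.25% ± 0.225 after SOX2 siRNA (SD, n = 3; exact permutation p = 0.6). The largest share was that of POU5F1P4, a processed pseudogene on chromosome 1, with 236 to 259 counts in the controls and 252 to 273 after SOX2 siRNA. With all copies added, POU5F1 had a log2 fold change of 0.17 (edgeR adjusted p = 0.00598). Exons of POU5F1 also overlap those of TCF19 on the opposite strand, and the use of strand in counting is not given in the sources used here. The paralog POU5F2 had 4 to 12 counts per library and was not tested.

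NANOG (chromosome 12, 7787794 to 7799141, plus strand), a homeodomain factor that stabilises pluripotency, was scarce in both groups. It had 28, 17 and 27 counts in the controls and 7, 8 and 5 counts after SOX2 siRNA. Every SOX2 siRNA library was below every control library. In CPM the means were 0.820 ± 0.130 and 0.216 ± 0.0425 (SD, n = 3), a log2 fold change of -1.91 (SE 0.334; 95% interval -2.62 to -1.21; edgeR adjusted p = 3.08e-04). This p describes a gene that entered the test only through the group where it was high. With no filter beyond 1 count it had a log2 fold change of -1.90 (edgeR adjusted p = 1.21e-05). That setting moved the edgeR adjusted p of other genes both ways, PRDM14 from 1.32e-13 to 3.69e-194 and SALL4 from 0.202 to 0.434. The smaller p of NANOG under it is therefore no added support.

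The NANOG promoter is shown because it holds the composite element of SOX and OCT factors. The stretch runs from 180 to 61 bases before the RefSeq start site (GRCh38.p14, chr12:7789222-7789341, plus strand), with the element in capitals:
NANOG promoter: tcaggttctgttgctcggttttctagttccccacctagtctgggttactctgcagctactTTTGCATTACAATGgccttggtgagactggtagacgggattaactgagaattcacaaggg
Here the element lies on the opposite strand from the gene, 120 to 107 bases before the start. Its search pattern was CATTGT, any 1 base, then ATGCAAA, on either strand, in windows from 250 bases before to 50 after each start. Of 35116 RefSeq promoter windows, 3 (0.00854%) held it, and they are set side by side, each in capitals and read so that the SOX-type letters come first:
NANOG element: CATTGTAATGCAAA
NRARP element: CATTGTTATGCAAA
LOC105370047 element: CATTGTCATGCAAA
The search left only the base between CATTGT and ATGCAAA free. NRARP, a feedback regulator of Notch signalling chosen for this element, had 1484, 1013 and 1236 counts in the controls and 1047, 1106 and 1077 after SOX2 siRNA, from 42.7 to 35.0 CPM on average (log2 fold change -0.29; edgeR adjusted p = 3.51e-04). LOC105370047 was not matched to a row of the count table. A match describes letters and shows neither binding nor a cause.

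Promoter windows were matched by symbol for 6 of the 10 genes, NANOG, DPPA4, L1TD1, ESRRB (3 start sites), KLF4 and ZFP42, and for SOX2. Searched by itself, CATTGT occurred in the windows of NANOG and of 1 ESRRB start site, and in 10.8% of all windows. ATGCAAA, searched likewise, occurred in those of NANOG and SOX2, and in 4.46% of all. The NANOG matches are the parts of the composite element shown above, not further sites. The octamer ATGCAAAT, which contains ATGCAAA, was in none of the matched windows and in 1.77% of all. In base composition the matched windows spread to both sides of the median over all windows, which was 58% G or C in the 250 bases before the start. DPPA4 had 43.2% and NANOG 47.6%, the 3 ESRRB start sites 44.4%, 47.2% and 56.4%, L1TD1 59.6%, KLF4 69.2% and ZFP42 74.4%. CpG pairs numbered 3 for DPPA4, 4 for NANOG, 3 to 5 for ESRRB, 12 for L1TD1, 25 for KLF4 and 23 for ZFP42, with a median of 11 over all windows.

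**Figure D3:**
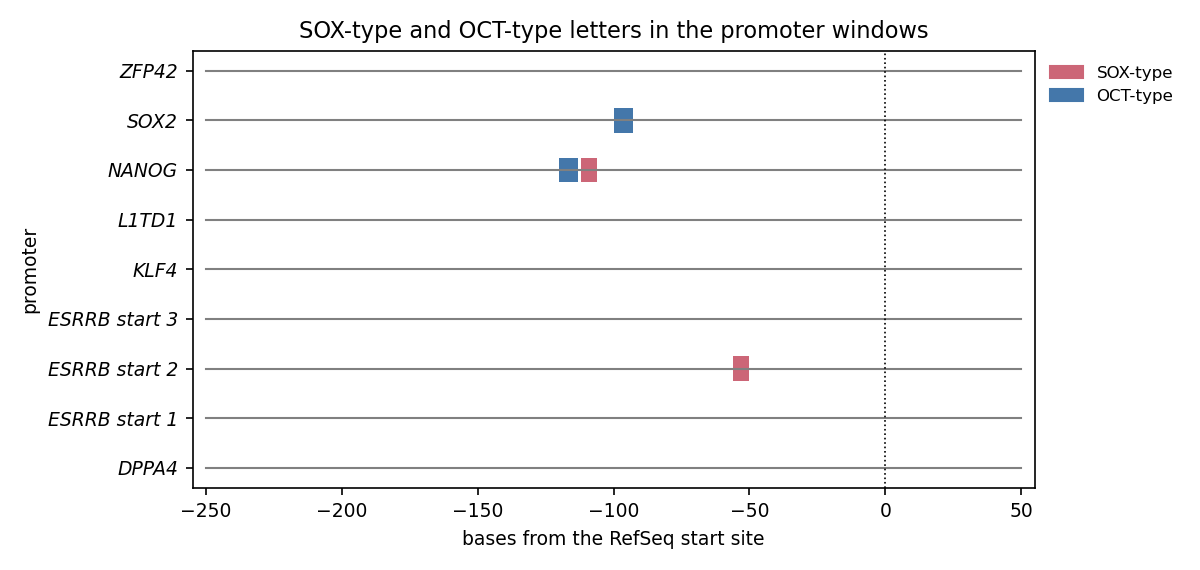
Matches to the SOX-type (CATTGT) and OCT-type (ATGCAAA) letters, either strand, in the RefSeq promoter windows of SOX2 and the 6 matched pluripotency genes, by distance in bases from each start site (dotted line). NANOG is the promoter with both, next to each other about 120 to 107 bases before the start; ESRRB has 3 start sites.

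NANOG too has copies that can share its reads. NANOGP1, a transcribed duplicate on chromosome 12 (7890801 to 7900140, plus strand), had 54, 34 and 53 in the controls and 18, 13 and 29 after SOX2 siRNA. It fell as well (log2 fold change -1.30; edgeR adjusted p = 0.00205), with no overlap of the groups. NANOGP8, a copy on chromosome 15, had 3 to 9 counts in the controls and 6 to 12 after SOX2 siRNA. NANOG and all NANOGP rows summed gave 88, 63 and 89 counts in the controls and 40, 38 and 42 after SOX2 siRNA, and a smaller log2 fold change of -1.08 (edgeR adjusted p = 2.05e-04). Of the pluripotency genes beside NANOG on chromosome 12, named after their values were seen, GDF3 had 12, 4 and 3 counts in control and 3 in each SOX2 siRNA library. DPPA3 had 1 count in 1 library and NANOGNB likewise.

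PRDM14 (chromosome 8, 70051651 to 70071693, minus strand), a PR-domain zinc finger protein needed for germ cell formation in mice and for human embryonic stem cell identity, had the largest fitted decrease of the 9 tested genes. It stood at 38.4, 34.7 and 37.5 CPM in the controls and at 8.58, 9.09 and 8.47 CPM after SOX2 siRNA. The groups were far apart and the libraries within each close together. The log2 fold change was -2.08 (SE 0.0651; 95% interval -2.22 to -1.94; edgeR adjusted p = 1.32e-13), which ranked it 30 by p and 49 by size of decrease among all tested genes. Set against SOX2, PRDM14 had 0.156, 0.131 and 0.146 counts per SOX2 count in the controls and 0.166, 0.166 and 0.167 after SOX2 siRNA. The ratio was 1.152-fold higher after SOX2 siRNA, without overlap (exact two-sided permutation p = 0.1, the smallest that 3 against 3 libraries can give; 0.15 after Benjamini-Hochberg adjustment over 9 such quantities).

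USP44 (chromosome 12, 95516560 to 95551490, minus strand) stood at 12.5, 11.3 and 12.97 CPM in the controls and at 4.64, 4.86 and 4.18 CPM after SOX2 siRNA. All SOX2 siRNA libraries were below all control libraries. The log2 fold change was -1.43 (SE 0.0958; 95% interval -1.63 to -1.23; edgeR adjusted p = 4.13e-09). USP44 fell less than SOX2: it had 0.0481 ± 0.00467 counts per SOX2 count in the controls and 0.0868 ± 0.00370 after SOX2 siRNA (SD, n = 3), 1.81-fold more, again at the smallest exact permutation p of 0.1. Its closest paralog USP49 stood at 53.6 ± 0.959 and 52.3 ± 2.49 CPM (log2 fold change -0.03; edgeR adjusted p = 0.645).

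SALL4 (chromosome 20, 51782331 to 51802520, minus strand), a zinc finger factor and clinical marker of germ cell tumours, had the second highest level per kb of the 10 in the controls. It stood at 153.5, 146 and 154 CPM in the controls and at 146, 145 and 142 CPM after SOX2 siRNA. The groups overlapped, and their ratio was 0.955 (95% interval 0.905 to 1.01; edgeR adjusted p = 0.202). Against POU5F1, SALL4 had 0.502 ± 0.0164 counts per POU5F1 count in the controls and 0.425 ± 0.0214 after SOX2 siRNA (SD, n = 3; exact permutation p = 0.1). Its paralog SALL1 rose from 208 ± 6.32 to 267 ± 0.739 CPM (log2 fold change 0.36; edgeR adjusted p = 4.08e-07). SALL2 stood at 143 ± 3.33 and 150.2 ± 1.10 CPM (edgeR adjusted p = 0.143), and SALL3 had at most 2 counts in any library.

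POU5F1 and SALL4 together carried 88.6% ± 0.312 of the summed counts of the 10 genes in the controls and 95.9% ± 0.156 after SOX2 siRNA (SD, n = 3; exact permutation p = 0.1, 0.15 adjusted). This share restates changes given above, the decreases of PRDM14 and USP44 and the increase of POU5F1. The sum itself was 510 ± 26.4 CPM in the controls and 504 ± 10.8 CPM after SOX2 siRNA, which overlapped (exact permutation p = 0.8).

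DPPA4 (chromosome 3, 109326141 to 109337572, minus strand) had 100, 76 and 89 counts in the controls and 72, 95 and 51 after SOX2 siRNA. In CPM the control libraries were nearly level, at 3.03, 3.03 and 3.08, and the SOX2 siRNA libraries spread below them, at 2.39, 2.94 and 1.71. The ratio was 0.771 (95% interval 0.592 to 1.01; log2 fold change -0.38; edgeR adjusted p = 0.141). Its size rested on single libraries. Without SOX2 siRNA replicate 2 the log2 fold change was -0.58 and the edgeR adjusted p 0.0472, while without SOX2 siRNA replicate 3 the log2 fold change was -0.20. Over all 14 alternatives the adjusted p ranged from 0.0472 to 0.472, and 13 left DPPA4 uncalled, as in the main fit. DPPA2, which forms a complex with DPPA4, had 7, 5 and 8 counts in the controls and 6, 3 and 2 after SOX2 siRNA, too few to be tested.

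L1TD1 (chromosome 1, 62194831 to 62212328, plus strand) derives from a LINE-1 retrotransposon and is abundant in many human pluripotent lines. In these libraries it was low and uneven, with 88, 47 and 24 counts in the controls and 58, 31 and 61 after SOX2 siRNA. The control libraries spanned the whole range of the SOX2 siRNA libraries, with coefficients of variation of 51.4% and 36.2% in CPM. The ratio was 0.907 with a 95% interval from 0.394 to 2.09 (edgeR adjusted p = 0.874). Its direction rested on single libraries, since the log2 fold change of -0.14 became 0.29 without control replicate 1 and 0.13 without SOX2 siRNA replicate 2. An exon of L1TD1 overlaps a small RNA gene on the same strand in GENCODE 29.

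ESRRB (chromosome 14, 76310712 to 76501837, plus strand), an orphan nuclear receptor, had 109, 61 and 76 counts in the controls and 74, 65 and 75 after SOX2 siRNA. The groups overlapped in CPM, at 2.79 ± 0.455 and 2.32 ± 0.273 (SD, n = 3), with a ratio of 0.829 (95% interval 0.646 to 1.06; edgeR adjusted p = 0.266). Its paralog ESRRG fell from 5.39 ± 0.614 to 1.95 ± 0.139 CPM (log2 fold change -1.46; edgeR adjusted p = 5.98e-07). The third receptor of the family, ESRRA, stood at 11.2 ± 0.433 and 11.7 ± 0.300 CPM (edgeR adjusted p = 0.623).

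KLF4 (chromosome 9, 107484852 to 107490482, minus strand), a zinc finger factor used in reprogramming, had 40, 18 and 22 counts in the controls and 20, 10 and 27 after SOX2 siRNA. The groups overlapped, and the ratio of 0.686 had a 95% interval from 0.408 to 1.151 (edgeR adjusted p = 0.283). Of the related factors that can stand in for KLF4 in mouse cells, KLF2 rose from 2.82 ± 0.555 to 4.82 ± 0.436 CPM (log2 fold change 0.77; edgeR adjusted p = 9.13e-04) and KLF5 fell from 7.70 ± 0.530 to 6.10 ± 0.768 CPM (log2 fold change -0.34; edgeR adjusted p = 0.0278). KLF17 had at most 2 counts in any library.

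ZFP42 (chromosome 4, 187995771 to 188005050, plus strand) had 0, 0 and 1 counts in the controls and 0, 0 and 1 after SOX2 siRNA. It was below the floor of 3 counts in each library, and a difference was not detectable at this depth. Of its relatives, YY1 stood at 193 ± 6.46 and 193 ± 3.08 CPM (edgeR adjusted p = 0.954) and YY2 at 1.78 ± 0.0962 and 1.36 ± 0.165 CPM (edgeR adjusted p = 0.159).

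**Figure D4:**
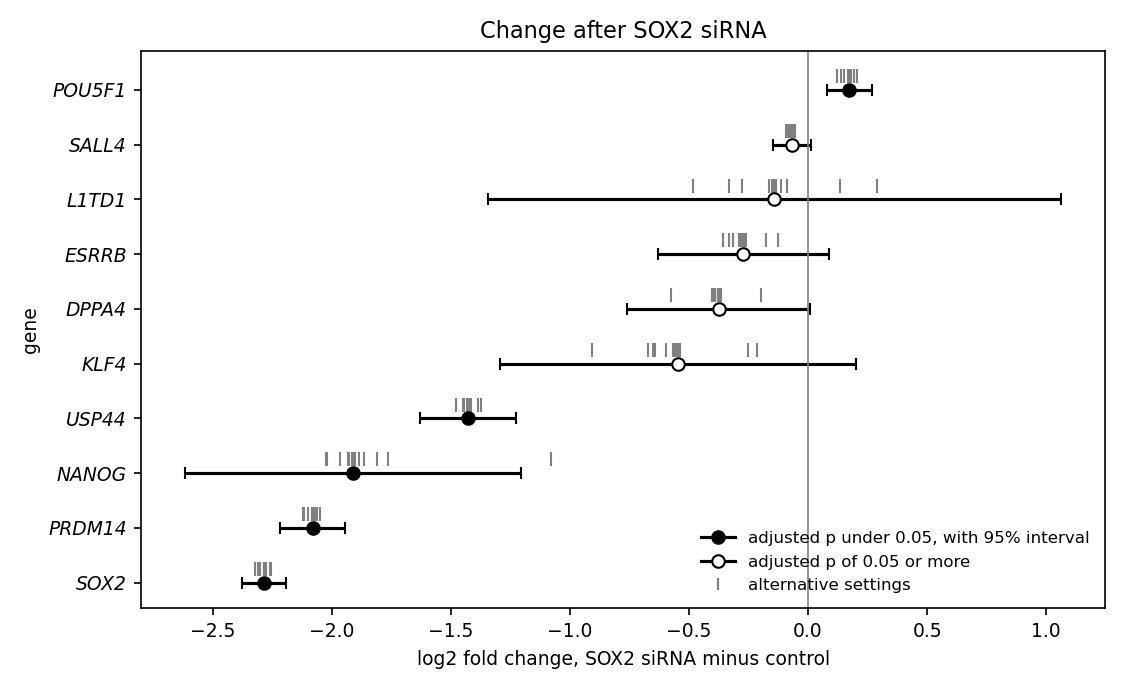
Log2 fold change (SOX2 siRNA minus control) of SOX2 and the 9 tested pluripotency genes, with 95% intervals from the edgeR fit. Filled points have an adjusted p under 0.05, and grey ticks give the same value under each alternative setting. PRDM14, NANOG and USP44 lie at -2.08, -1.91 and -1.43; the tick of NANOG at -1.08 is the sum with its copies, and L1TD1 has ticks on both sides of 0.

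Other genes of the pluripotency network were described as lists. These lists, and the marker lists below, were chosen with earlier results of these data known. Their counts beside the background therefore describe the lists and test nothing. Of 16 further naive-state genes, 10 were too low to be tested and 6 were tested, of which 1 rose and 3 fell (4 of 6 called, background 28.2%; median log2 fold change -0.34, against -0.001 over all tested genes). TFAP2C, an AP-2 factor of naive cells and early germ cells, fell from 27.1 ± 1.19 to 11.9 ± 0.297 CPM (log2 fold change -1.19; edgeR adjusted p = 1.52e-10). GBX2, a homeobox gene, fell from 30.5 ± 1.17 to 17.5 ± 0.587 CPM (log2 fold change -0.81; edgeR adjusted p = 1.01e-08). KLF2 and KLF5 are given above.

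All 14 primed-state genes were tested, and 5 rose (background 14.8%) and 6 fell (background 13.4%), so that 11 of 14 were called (background 28.2%; median log2 fold change 0.02). PODXL, a surface sialomucin, fell from 1316 ± 15.04 to 671 ± 25.1 CPM. The secreted Wnt modulator SFRP2 fell from 207 ± 0.901 to 75.5 ± 4.06 CPM and the surface protein CD24 from 202 ± 1.36 to 94.2 ± 2.94 CPM. ZIC2, a zinc finger factor, fell from 228 ± 1.151 to 126 ± 8.76 CPM. The ERK phosphatase DUSP6 rose in contrast, from 59.8 ± 2.85 to 231 ± 8.64 CPM (log2 fold change 1.95; edgeR adjusted p = 2.26e-15). Their log2 fold changes were -0.97 for PODXL, -1.45 for SFRP2, -1.10 for CD24 and -0.86 for ZIC2, with edgeR adjusted p of 1.57e-10 or less for each.

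Of 21 general pluripotency genes 15 were tested, and 6 rose and 3 fell (9 of 15 called, background 28.2%; median log2 fold change 0.01). The 6 include LEFTY2, whose direction the filter fixed, as described with its counts. The RNA-binding proteins LIN28A and LIN28B rose from 706 ± 3.61 to 1148 ± 10.4 CPM and from 239 ± 10.9 to 359 ± 12.7 CPM (log2 fold changes 0.70 and 0.59; edgeR adjusted p = 1.80e-11 and 5.10e-09). JARID2, a subunit of Polycomb repressive complexes, fell from 159.5 ± 2.55 to 125 ± 3.33 CPM, and POLR3G, an RNA polymerase III subunit, from 87.1 ± 7.76 to 51.1 ± 3.13 CPM (log2 fold changes -0.36 and -0.77; edgeR adjusted p = 9.42e-07 and 5.41e-06). LEFTY2, a Nodal antagonist, had 8, 4 and 7 counts in the controls and 27, 25 and 37 after SOX2 siRNA, and passed the filter through the SOX2 siRNA libraries alone. The 6 untested genes, TDGF1, GDF3, UTF1, LEFTY1, NODAL and TNFRSF8, were named after their values were seen. Each had at most 12 counts in any library.

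**Figure D5:**
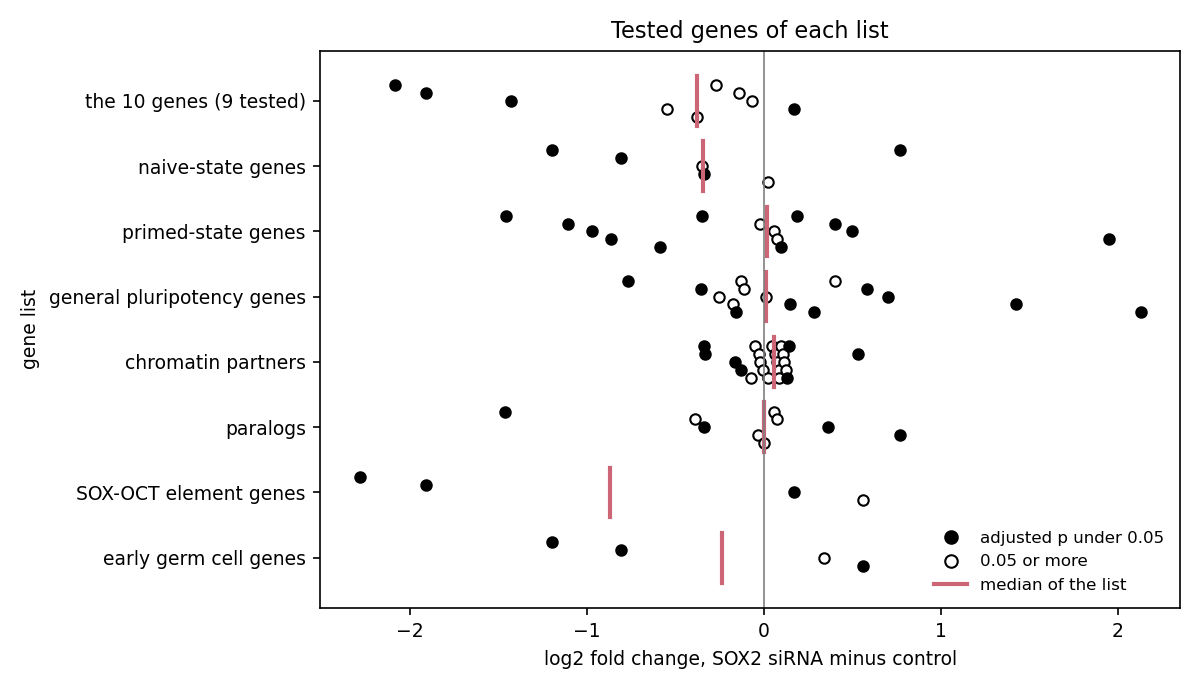
Log2 fold change (SOX2 siRNA minus control) of the tested genes of each list; filled points have an adjusted p under 0.05 in the edgeR fit, and the red bar is the median of the tested genes. Lists share some genes, and points are spread vertically for legibility only. PRDM14 at -2.08 and NANOG at -1.91 lie lowest among the 10 genes, and DUSP6 at 1.95 lies highest among the primed-state genes.

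Proteins known to bind OCT4, NANOG, SALL4, PRDM14, ESRRB or USP44, such as subunits of the NuRD, BAF and NCoR complexes, made a further list. Of 22 such genes, all tested, 3 rose and 4 fell (median log2 fold change 0.06). That is 7 of 22, near the background of 28.2%, and no result about the partners as a list. The deacetylase HDAC1 rose from 119 ± 1.32 to 172 ± 4.27 CPM (log2 fold change 0.53; edgeR adjusted p = 5.28e-09). NCOA3, a coactivator of ESRRB, fell from 88.9 ± 0.902 to 70.5 ± 1.92 CPM (log2 fold change -0.34; edgeR adjusted p = 5.15e-06). The NuRD subunit CHD4 stood at 671 ± 4.36 and 695 ± 14.1 CPM (edgeR adjusted p = 0.288). PRMT5 and CBFA2T2, partners of PRDM14, stood at 117 ± 1.59 and 115 ± 3.24 CPM and at 41.2 ± 0.122 and 45.0 ± 2.84 CPM (edgeR adjusted p = 0.670 and 0.0735).

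Of 7 genes known in mouse cells for a SOX-OCT composite element, POU5F1, NANOG, SOX2 and FBXO15 were tested, and FBXO15 was not called (0.340 ± 0.120 and 0.495 ± 0.168 CPM; edgeR adjusted p = 0.319). The remaining 3, FGF4, UTF1 and LEFTY1, had at most 7 counts in any library. Of 9 early germ cell genes 4 were tested and 3 were called (background 28.2%). DAZL, an RNA-binding protein of germ cells, fell from 9.05 ± 0.206 to 5.19 ± 0.358 CPM and TFAP2C fell as above, while PRDM1, a relative of PRDM14, rose from 20.1 ± 0.148 to 29.6 ± 1.09 CPM (log2 fold changes -0.80, -1.19 and 0.56; edgeR adjusted p = 5.07e-06, 1.52e-10 and 5.15e-07). DND1 was tested and not called (edgeR adjusted p = 0.404). KIT, which was not tested, had 12, 8 and 7 counts in the controls and 5, 2 and 2 after SOX2 siRNA. The germ cell genes SOX17, NANOS3, DPPA3 and DDX4 had at most 3 counts in any library.

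Over the 6 libraries, the genes whose log2 CPM ran most like that of PRDM14 were SFRP1 and TFAP2C (Pearson r 0.9995 and 0.9994), among 12080 genes compared. For USP44 they were GALNT10 and LINC02609 (r 0.999 and 0.998), and for POU5F1 NME2 and ARF1 (r 0.998 and 0.994). NME2 did not itself pass the test (log2 fold change 0.10; edgeR adjusted p = 0.0549). These are descriptions over 6 points that share 2 groups, so any gene with a large difference between the groups scores high; SOX2 had r of 0.998 with PRDM14 and 0.993 with USP44.

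Markers of the labelled cell type and of others were read in the same libraries. Of 10 markers of pluripotent or embryonal carcinoma cells, TDGF1 and TNFRSF8 stayed under 1 CPM in every library, and the list's summed level was 2791 to 2853 CPM in the controls and 2473 to 2519 CPM after SOX2 siRNA. Of its 8 tested members 5 were called, 3 higher and 2 lower (background 28.2% called, here and for the lists that follow). The 2 lower ones were PODXL, given above, which fell by more CPM than the sum did, and SOX2. The siRNA aimed at SOX2, so its decrease, from 255 to 52.5 CPM, is no result about the markers, though it enters the sum and the count. POU5F1, among the 3 higher ones, is itself 1 of the 10 genes. Of 7 trophoblast markers none was tested, CGA, CGB5, PSG1 and CSH1 were at 0 in every library, and the sum was at most 0.273 CPM. Yolk sac markers, almost all GPC3, summed to 91.8 to 97.7 CPM in the controls and 93.2 to 99.6 CPM after SOX2 siRNA, with none of 5 tested members called. Neural markers, almost all PAX6, summed to 4.26 to 5.58 and 4.57 to 5.07 CPM, with NEUROD1 at 0 in every library. Fibroblast markers, mostly COL1A1, were higher after SOX2 siRNA, at 400.4 to 452 CPM against 305.5 to 352 CPM, with 2 of 4 tested members called. Blood and endothelial markers, mostly PECAM1, were lower, at 50.7 to 52.3 CPM against 75.0 to 77.8 CPM, with 3 of 4 tested members called and PTPRC at 0 to 3 counts. The part of these marker differences in the changes of PRDM14, NANOG, USP44 and POU5F1 was not tested.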

How the data were processed

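The authors deposited 1 table of raw read counts per gene symbol, with a column for each of the 6 libraries. RNA was extracted with Trizol and libraries made with a KAPA mRNA HyperPrep kit, per the labels' protocols. Per the submitters' processing notes, bcl2fastq 2.20.0, STAR 2.7.3a, Salmon 0.14.1 and DESeq2 1.28.1 were used with GRCh38.p13; which of them made the counts, the annotation and the use of strand are not given in the sources used here. Counts of replicates differed by more than counting noise (chi-square per degree of freedom 2.91 to 6.43), so no pair was merged.

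The whole table was fitted with edgeR 4.0.16 in R 4.3.3: filterByExpr with a minimum count of 10, TMM scaling, then glmQLFit (robust) and glmQLFTest between the groups. P-values were adjusted by Benjamini-Hochberg across the 17592 tested genes and called under 0.05. CPM are counts divided by the TMM-scaled library size. Standard errors and 95% intervals come from the F statistic of the same fit. For 9 single quantities, exact permutation tests (two-sided) were run and adjusted together. Log2 CPM for likeness used a prior count of 2, over genes with a mean of at least 2 on that scale. Alternatives were other scalings and filters, DESeq2 1.42.0, limma-voom 3.58.1, a replicate block, each library left out, and copies summed. The procedure was tested on simulated data.

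Gene positions, exon lengths and overlaps are from GENCODE 29 (GRCh38), which need not be the authors' annotation; promoter windows are from RefSeq (GRCh38.p14). Named genes were the 10, SOX2, listed paralogs and copies, and in each list up to 5 called genes by smallest p and the 3 of highest mean CPM; fewer are printed. Genes at or near 0, those beside NANOG, and NRARP were chosen after their values or elements were seen. The 10 genes and the lists were chosen with earlier results of these data known.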

Additional observations from a re-analysis of the deposited data

How the results depend on the processing

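PRDM14, NANOG, USP44 and POU5F1 kept their direction and their call under each alternative that gave a value; with at least 10 counts in every library NANOG was not tested, and 3 of the genes were called. Their log2 fold changes ranged from -2.12 to -2.05, from -2.02 to -1.08, from -1.48 to -1.37 and from 0.123 to 0.204. The kept call of NANOG adds no support. Most alternatives used the same filter on low counts, which NANOG passed through the control libraries alone. The count of called genes among the 10 ranged from 3 to 5, with 5 when SOX2 siRNA replicate 2 was left out, where DPPA4 was added. Leaving out one library at a time gave DPPA4 log2 fold changes from -0.576 to -0.196 and L1TD1 values from -0.484 to 0.290; L1TD1 was above 0 without control replicate 1 (0.290) and without SOX2 siRNA replicate 2 (0.133). For DPPA4, the cause was not tested. In the same way KLF4 ranged from -0.907 (without SOX2 siRNA replicate 3) to -0.214 (without SOX2 siRNA replicate 2), with -0.252 without control replicate 1, and ESRRB from -0.356 to -0.126 (without control replicate 1), with -0.178 without SOX2 siRNA replicate 2. SALL4, ESRRB and KLF4 stayed below 0 and uncalled under all 14 alternatives each. Calls over all genes ranged from 3760 to 5212. With the median transcript length, 5 genes changed rank in the order of levels.

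Same-numbered libraries correlated at 0.0868, -0.0377 and -0.0311 in their deviations, and not each correlated best with its own number. Such deviations, from only 3 libraries per group, cannot settle whether the numbers pair the libraries. With the number as a replicate block, 5177 genes were called against 4964, no call among the 10 changed, and log2 fold changes were -2.08 for PRDM14, -1.90 for NANOG, -1.43 for USP44 and 0.175 for POU5F1. Depth limits NANOG, KLF4 and ZFP42, with 72, 80 and 1 counts in the control libraries together and 20, 57 and 1 after SOX2 siRNA.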
